A study of Mus musculus with 3 samples.

Results

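The genes described here encode the proteins of the mitochondrial ribosome and carry the mouse symbols Mrpl (large subunit) and Mrps (small subunit) followed by a number. They were chosen by symbol alone, which gave 76 of the 23234 genes listed, 47 named Mrpl and 29 named Mrps. RNA was measured in 3 sorted cell populations from wild-type C57BL/6J mice aged 6 to 15 weeks. All mice had received 10 µg of lipopolysaccharide (LPS), a component of the bacterial outer membrane that provokes inflammation, in 10 µL of PBS into the nostrils. The first population, double-positive cells (DP), was CD45+Ly6G+SiglecF+ and was sorted from the nose on day 2. The second, nasal neutrophils, was CD45+Ly6G+SiglecF- and was sorted from the nose on day 1. The third, blood neutrophils, was sorted with the gate of the second from peripheral blood, also on day 1. CD45 marks blood-derived cells, Ly6G marks mouse neutrophils, and SiglecF is a lectin best known from eosinophils. Each group is 1 library, and the labels do not say how many mice went into it, so no value below has a replicate error and no difference was tested. Day and gate cannot be told apart from the group in comparisons with DP, nor tissue in comparisons with blood.

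Mitochondria keep a small genome that encodes a few subunits of the respiratory chain and ATP synthase, and a dedicated ribosome inside the organelle translates them. Every protein of that ribosome is encoded in the nucleus, made in the cytosol and imported, and the ribosome descends from a bacterial one to which many mitochondria-specific proteins have been added. Neutrophils are known as cells with few mitochondria that draw their energy mainly from glycolysis.

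Promoter sequence was looked at first, because many genes of this kind are known to have binding sites for ETS-family factors such as Gabpa, for Nrf1 or for Yy1 near their start. Of the 76 genes, 67 had an entry in a RefSeq promoter table for GRCm38.p6, with 73 windows reaching from 250 bases before to 50 bases after a transcript start. The ETS core CCGGAAG was found on either strand in 32.9% of these windows, against 8.86% of all 32851 windows in the table and 18% of the windows of the measured genes. The Nrf1 palindrome, GCGC on each side of any 2 bases, stood in 17.8% of them, against 6.23% of all windows and 12.8% of those of measured genes. The Yy1 element, AAGATGG followed by CGGC, stood in 6.85%, against 0.633% and 1.57%. The GC box GGGCGG, by contrast, was less common than in measured genes as a whole (52.1% against 59.8%), though more common than in all windows (35.7%). Matches of different motifs overlapped each other in 2 windows, those of Mrpl17 and Mrps16. At least 1 of the ETS, Nrf1 and Yy1 letters was present in 37 of the 67 genes and in 50.7% of their windows, against 14.4% of all windows and 29.0% of those of measured genes. These are matches of letters and not binding sites.

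The first 4 sequences are shown from genes that, in the measurements below, stood 4-fold or more above nasal neutrophils in DP. They were chosen after their values were seen, and show how differently the motifs are placed. Each is the 160 bases before the transcript start, 5′ to 3′ on the strand of the gene, with matches in capitals. Mrpl52 (chr14:54426749-54426908, plus strand) holds the ETS core in reverse, with its first base 47 bases before the start. Mrps21 (chr3:95871515-95871674, minus strand) holds an Nrf1 match 91 bases before the start. Mrpl22 (chr11:58171504-58171663, plus strand) holds an ETS match 53 bases before it, and Mrpl45 (chr11:97315556-97315715, plus strand) has Nrf1 matches at 120 and 38 bases.
Mrpl52: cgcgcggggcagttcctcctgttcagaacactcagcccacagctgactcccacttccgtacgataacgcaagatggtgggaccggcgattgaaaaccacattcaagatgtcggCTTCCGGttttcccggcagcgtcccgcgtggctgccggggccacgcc
Mrps21: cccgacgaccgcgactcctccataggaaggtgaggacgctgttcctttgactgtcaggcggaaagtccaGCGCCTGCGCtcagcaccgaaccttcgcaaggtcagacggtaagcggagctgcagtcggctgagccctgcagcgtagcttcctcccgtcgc
Mrpl22: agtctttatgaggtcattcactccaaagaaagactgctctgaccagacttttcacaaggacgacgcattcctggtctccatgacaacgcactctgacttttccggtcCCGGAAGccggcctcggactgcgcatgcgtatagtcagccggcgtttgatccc
Mrpl45: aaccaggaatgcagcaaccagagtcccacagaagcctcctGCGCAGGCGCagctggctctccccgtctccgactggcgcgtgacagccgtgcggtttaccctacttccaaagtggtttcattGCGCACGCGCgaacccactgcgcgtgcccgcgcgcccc

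The next 4 come from genes with some of the smaller differences between those libraries. All genes of both sets hold an ETS or Nrf1 match, so the sets cannot show whether the motifs go with the size of the difference. Mrpl42, with the highest log2 ratio of DP over nasal neutrophils (3.94), and Mrps5, with a low one (0.49), had no ETS, Nrf1 or Yy1 match. Mrpl3 (chr9:105053108-105053267, plus strand) has the ETS core 19 bases before its start. Nrf1 matches lie 81 bases before the start of Mrpl12 (chr11:120484477-120484636, plus strand), 125 bases before that of Mrpl39 (chr16:84735245-84735404, minus strand) and 28 bases before that of Mrpl9 (chr3:94443176-94443335, plus strand).
Mrpl3: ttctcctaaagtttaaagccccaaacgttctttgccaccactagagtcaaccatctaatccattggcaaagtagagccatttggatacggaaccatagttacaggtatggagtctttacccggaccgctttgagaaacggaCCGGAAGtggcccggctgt
Mrpl12: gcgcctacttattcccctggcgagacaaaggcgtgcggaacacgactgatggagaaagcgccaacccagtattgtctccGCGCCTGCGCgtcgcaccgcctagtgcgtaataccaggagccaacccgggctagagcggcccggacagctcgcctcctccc
Mrpl39: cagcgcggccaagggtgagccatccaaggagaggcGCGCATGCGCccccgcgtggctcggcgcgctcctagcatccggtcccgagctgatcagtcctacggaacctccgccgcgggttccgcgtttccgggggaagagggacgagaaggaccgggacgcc
Mrpl9: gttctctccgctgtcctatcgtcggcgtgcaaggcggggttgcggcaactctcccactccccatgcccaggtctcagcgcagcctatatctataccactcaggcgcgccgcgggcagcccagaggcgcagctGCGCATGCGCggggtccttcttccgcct

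Levels are given as FPKM, fragment numbers divided by transcript length and by the mapped fragments of the library, a scale per length on which genes can be set side by side. Genes averaging at least 1 FPKM across the libraries were taken as measured, which held for 10719 genes and for all 76 mitochondrial ribosomal protein genes, none of which was listed at 0 in any library. In DP the levels of the 76 ran from 3.45 FPKM (Mrps2) to 679 (Mrpl52), with a median of 33.7. In nasal neutrophils they ran from 1.64 (Mrps27) to 142 (Mrpl33), with a median of 9.36, and in blood neutrophils from 0.075 (Mrps2) to 1131 (Mrpl33), with a median of 6.37. The medians over all measured genes were 8.87, 5.79 and 3.47 FPKM in the same order of libraries. Mitochondrial ribosomal protein genes thus lay above the typical measured gene in each library, most of all in DP. This comparison was not matched for transcript length, whose median was 1038 nt for the 76 and 1851 nt for all measured genes. On log2 scales, levels of the 76 fell with length, with Pearson correlations of -0.60 (DP), -0.58 (nasal) and -0.44 (blood). A level of 10 FPKM or more was reached by 64 of the 76 in DP, 35 in the nasal and 30 in the blood neutrophil library. The medians of all measured genes fall in the same order. Their shares at 10 FPKM or more, or below 1 FPKM, were not counted.

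Below 1 FPKM were 0 genes in DP and in nasal neutrophils and 9 in blood: Mrps2, Mrpl11, Mrps27, Mrps6, Mrps5, Mrpl38, Mrpl16, Mrps10 and Mrpl45. The 5 lowest means over the libraries were those of Mrps2, Mrps25, Mrpl19, Mrps6 and Mrps27. Of their exon bases, 69.8% in Mrps25, 36% in Mrpl19, 24.2% in Mrps27 and 19.9% in Mrps6 are shared with other annotated genes. Mrps2, counterpart of bacterial S2, gave 3.45, 2.54 and 0.075 FPKM (DP, nasal, blood). Mrps6, on the platform of the small subunit, gave 6.23, 3.55 and 0.35 FPKM, and Mrps27, an RNA-binding protein of the small subunit, 8.88, 1.64 and 0.28. The blood library was the lowest for each of these. At the top of the range, Mrpl33, Mrps21, Mrpl52, Mrps18c and Mrpl42 had the highest means, and they were also the 5 highest in DP.

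**Figure D1:**
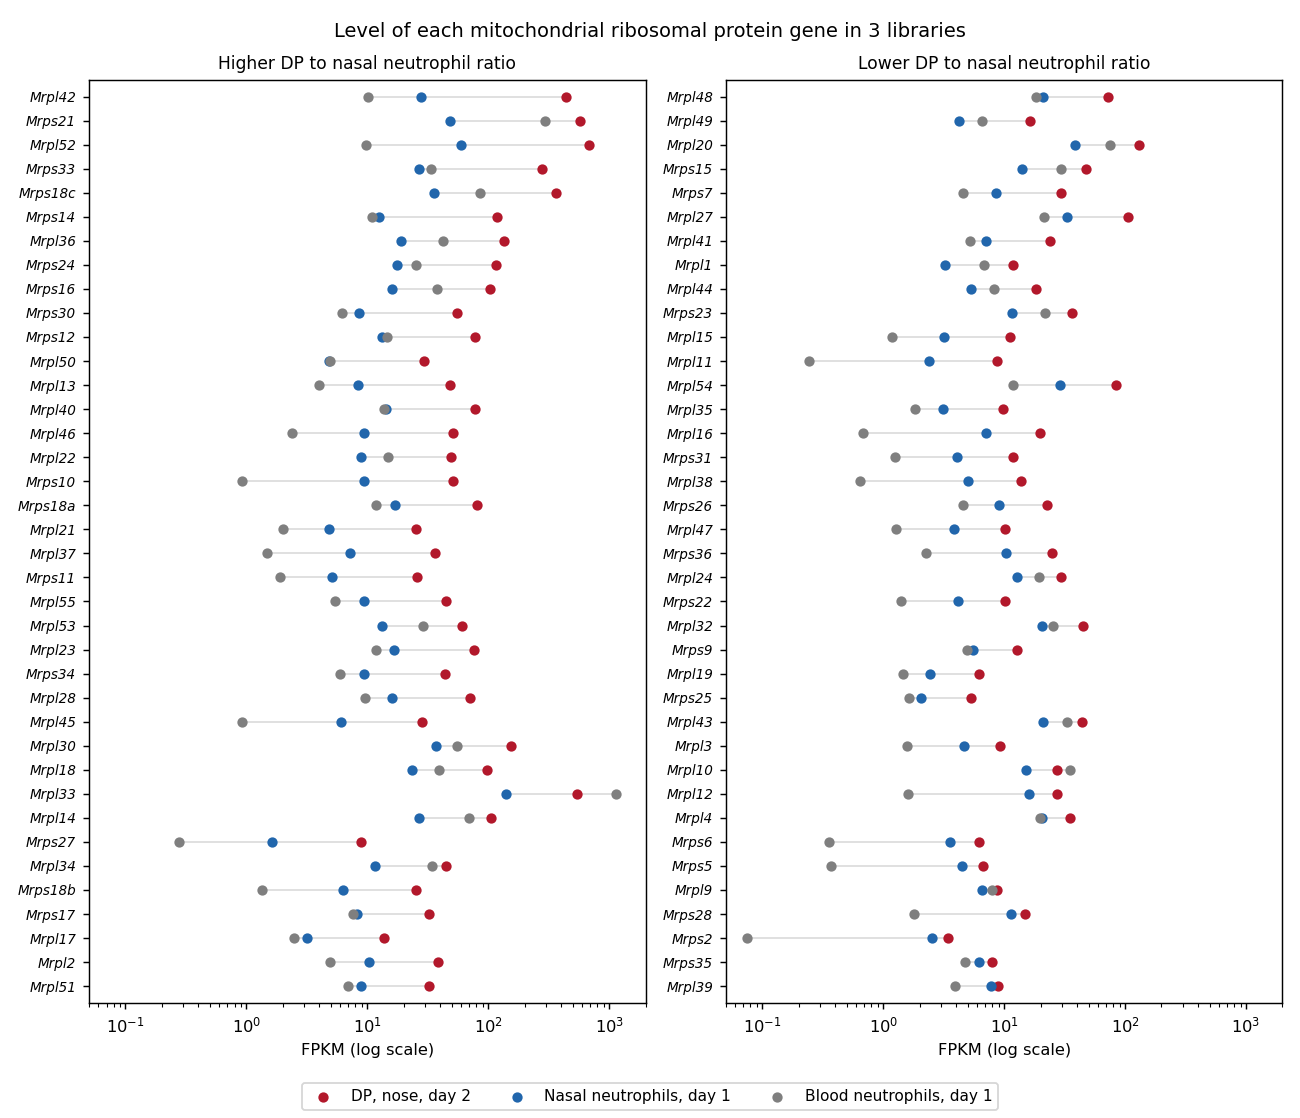
Level of each of the 76 genes in the 3 libraries (FPKM, log scale), sorted from the highest to the lowest DP to nasal neutrophil ratio, left panel first. Each point is 1 library; DP lies to the right of nasal neutrophils for all 76 genes before any centring (70 after the median of all measured genes is subtracted), while the blood point falls on either side of the nasal one.

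The levels of the 76 genes summed to 5857 (DP), 1118 (nasal) and 2433 (blood) FPKM, or 0.919%, 0.180% and 0.367% of all FPKM in the library. The sum puts blood above nasal neutrophils although its median is lower, since a few genes carry the blood sum. The 5 highest genes made up 68.0% of it in blood, against 44.4% in DP and 29.2% in nasal neutrophils. DP was the highest of the 3 libraries for 74 of the 76, where 58.7% of measured genes had their highest level in DP. Of the 74, 50 ran DP, nasal, blood in falling order (40.2% of measured genes did) and 24 ran DP, blood, nasal (18.5%). The exceptions were Mrpl33 and Mrpl10, both highest in blood.

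Markers of neutrophils and of other cells of the nose differed between the libraries. The 13 neutrophil markers listed summed to 13023, 59904 and 80500 FPKM (DP, nasal, blood), and all 13 were lower in DP than in nasal neutrophils, with S100a8 listed at 0 in blood. Markers of olfactory neurons summed to 1996, 973 and 4.91 FPKM, and DP exceeded nasal neutrophils for 9 of 11. Nasal epithelial and gland markers summed to 2765, 2016 and 1.62 FPKM, with 6 of 14 higher and 7 lower in DP than in nasal neutrophils and Scgb1a1 at 0 in all 3. Macrophage markers summed to 462, 557 and 400 FPKM, and 9 of 10 were lower in DP than in nasal neutrophils. In blood 6 of the 10 were at 0, among them C1qb (32.3 FPKM in DP and 80.9 in nasal neutrophils). The blood sum came mostly from Cd68 (235 FPKM), Csf1r (85.9) and Emr1 (78.8). Eosinophil markers summed to 179, 26.8 and 25.6 FPKM, of which the SiglecF gene Siglec5 made 168, 9.92 and 18.7 while Epx was at 0 throughout. B and T cell markers summed to 18.5, 48.6 and 75 FPKM and red cell markers to 18.6, 26.0 and 5511. Depth, read from the steps between low values, was about 54 fragments per FPKM at 1 kb in DP and in blood neutrophils but about 13 in nasal neutrophils. In the labels the libraries of DP and blood have neighbouring sample codes and that of nasal neutrophils does not; whether that marks a batch is not stated. These values move with the comparisons that follow, and their part in the results was not tested.

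Ratios are differences of log2(FPKM + 1), which understates the ratio of low genes. DP against nasal neutrophils sets cells from the same tissue side by side. All 76 genes had a log2 ratio above 0, where 69.3% of measured genes did; the median of all measured genes was itself 0.57, and 70 of the 76 were above 0 once that shift was subtracted. The median over the 76 was 1.74. At least 2-fold higher in DP were 65 genes (background 33.6%), at least 4-fold higher were 29 (8.42%), and 0 were 2-fold lower, where 11.3% of measured genes were. With the shift subtracted, 47 were 2-fold and 9 were 4-fold higher. In bulk RNA, fewer cells of a type and less RNA per cell cannot be told apart.

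The 8 highest ratios among genes with a mean of 5 FPKM or more included proteins of both subunits. Mrpl42, a mitochondria-specific protein of the large subunit, reached 439 FPKM in DP against 27.6 in nasal and 10.1 in blood neutrophils. Its log2 ratio of 3.94 for DP over nasal neutrophils was the highest of all 76. Mrps21, a small-subunit protein with a bacterial counterpart, gave 577, 48.6 and 294 FPKM in that order, a ratio of 3.54. For this gene blood lay between the nasal libraries. Mrpl52 gave 679, 60.0 and 9.82 FPKM, a ratio of 3.48, with blood the lowest. Mrps33, mitochondria-specific in the small subunit, gave 279, 27.0 and 33.4 FPKM, a ratio of 3.32. Both neutrophil libraries were low for it, at nearly the same level. Mrps18c gave 361, 35.8 and 85.0 FPKM, a ratio of 3.30, and 23.2% of its exon bases are shared with another annotated gene. Mrps14, a protein of the small-subunit head, gave 117, 12.5 and 11.1 FPKM, a ratio of 3.13. Mrpl36, the counterpart of bacterial L36, gave 136, 18.9 and 42.7 FPKM, a ratio of 2.78. The last of the 8 was Mrps24, a counterpart of bacterial S3 at the mRNA entry, with 115, 17.7 and 25.5 FPKM and a ratio of 2.63.

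At the other end, DP and nasal neutrophils were close. Mrpl39, a mitochondria-specific large-subunit protein, gave 8.96, 7.85 and 3.93 FPKM (DP, nasal, blood), a log2 ratio of 0.17. Mrps35, in the small subunit, gave 7.90, 6.17 and 4.75 FPKM, a ratio of 0.31. Mrps28 gave 14.9, 11.5 and 1.81 FPKM, a ratio of 0.34, and blood alone was low. Mrpl9, counterpart of bacterial L9, gave 8.70, 6.60 and 7.99 FPKM, a ratio of 0.35. The 3 libraries were nearly level for this gene. Mrpl4, which lines the early part of the exit tunnel in ribosomes, gave 35.0 FPKM in DP and 20.7 in nasal neutrophils, a ratio of 0.73, and 19.7 in blood. Mrpl3, a core protein near the peptidyl transferase centre, gave 9.32, 4.65 and 1.58 FPKM, a ratio of 0.87. Mrpl39, Mrps35, Mrps28 and Mrpl9 lay below the median of all measured genes, as did Mrps2 (0.33) and Mrps5 (0.49), so the direction of these 6 turned once that median was subtracted.

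**Figure D2:**
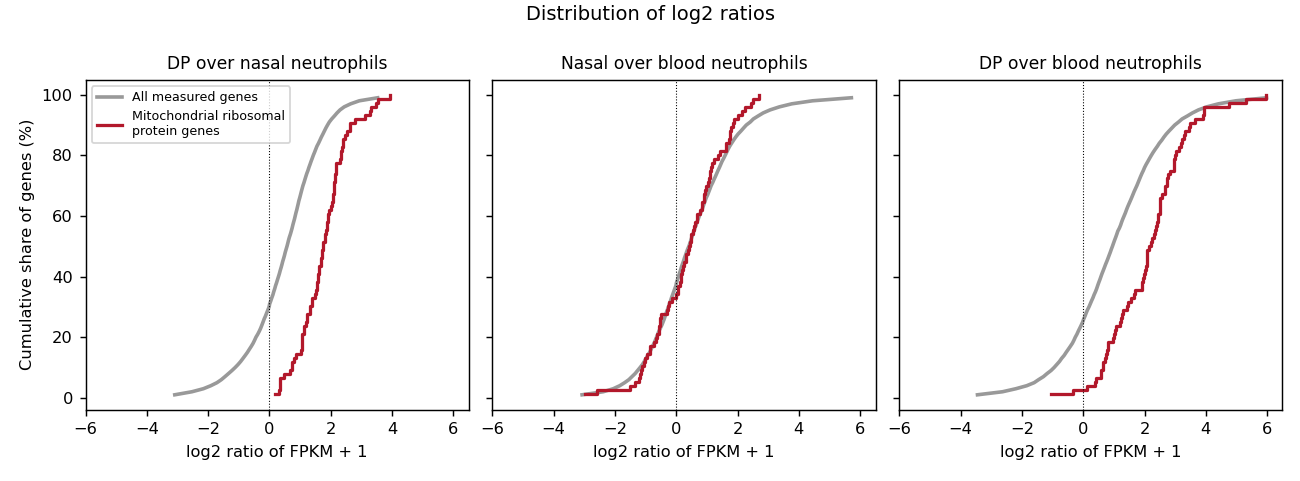
Cumulative share of genes (vertical axis, %) against the log2 ratio of FPKM + 1 (horizontal axis) in the 3 comparisons, for the 76 genes (red steps) and for percentiles of all 10719 measured genes (grey line). The red curve lies to the right of the grey in the comparisons of DP with nasal neutrophils (medians 1.74 and 0.57) and with blood (2.17 and 0.95), and runs along it for nasal against blood neutrophils (0.43 and 0.41).

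Nasal against blood neutrophils sets the same gate in different tissues side by side, on the same day. The median log2 ratio of the 76 genes was 0.43, and that of all measured genes was 0.41; 50 of the 76 were above 0 (background 62.1%), or 39 once the median of all genes was subtracted. In nasal neutrophils 23 genes were at least 2-fold higher (background 33.5%) and 10 at least 2-fold lower (12.8%), and at 4-fold the counts were 6 (13.1%) and 2 (3.23%). These shares lay near those of all measured genes. The genes behind them differed widely from each other, between -2.99 for Mrpl33 and 2.71 for Mrpl12.

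Mrpl33, counterpart of bacterial L33, was the most abundant of the 76 in both neutrophil libraries, with levels of 142 (nasal) and 1131 (blood) FPKM, and 546 FPKM in DP. Mrps21 (ratio -2.57) was likewise lower in nasal than in blood neutrophils, as were Mrpl34 at 11.5 against 34.7 FPKM (-1.51) and Mrpl14 at 27.0 against 69.8 (-1.34). Mrpl33 and Mrps21 are among the shortest of the 76 transcripts, at 478 and 405 nt. Mrpl52 is also short, at 418 nt, but was higher in nasal than in blood neutrophils, at 60.0 against 9.82 FPKM (ratio 2.50). Mrpl12 was likewise higher in nasal neutrophils, with 16 FPKM against 1.60 in blood, and 27.4 in DP. It belongs to the stalk that recruits translation factors, and is also known to bind the mitochondrial RNA polymerase. Mrps10 had 9.43 FPKM against 0.92 (ratio 2.44). Mrpl16 had 7.02 against 0.68 (ratio 2.25), and Mrps28 11.5 against 1.81 (ratio 2.15). In blood these rest on few fragments, about 51 for Mrps10 and 43 for Mrpl16.

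DP against blood neutrophils differs in tissue, day and gate together, and shares its libraries with the comparisons above. The median over the 76 was 2.17, against 0.95 over all measured genes. At least 2-fold higher in DP were 61 genes (background 48.6%) and at least 4-fold higher were 45 (24.0%). Of the 76, Mrpl33 alone was 2-fold lower (9.49% of measured genes were), and 0 were 4-fold lower (3.57%). Mrpl10, a stalk protein that anchors Mrpl12, gave 27.3, 15.3 and 35.1 FPKM (DP, nasal, blood). Apart from it and Mrpl33, 74 genes were higher in DP than in blood (background 74.4%), or 62 with the shift subtracted, and 1.22 was then the median. Mrpl52 had the highest ratio at 5.97, followed by Mrpl42 at 5.31 and Mrps10 at 4.75.

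The medians of both subunits were close, without a test. The 49 proteins of the large subunit had a median of 1.75 for DP over nasal neutrophils and the 26 of the small subunit 1.77, with all of each above 0 before centring. Mrps18a and Mrps30 were counted with the large subunit, where structures place them. Mrps36, named for the small subunit but now known as a component of the 2-oxoglutarate dehydrogenase complex, was counted apart and stood at 25, 10.3 and 2.26 FPKM, a ratio of 1.20. Proteins with a bacterial counterpart (46) and mitochondria-specific proteins (29) had medians of 1.77 and 1.75.

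Parts of the ribosome spread around that value. The stalk and its base, where translation factors dock (Mrpl10, Mrpl11, Mrpl12, Mrpl53 and Mrpl54), had the lowest median of these classes at 1.5, from 0.74 for Mrpl12 to 2.12 for Mrpl53. For Mrpl53, 88.0% of exon bases are shared with other annotated genes, counted on either strand. Reads there may belong to any of these genes and were not told apart. The exit tunnel, through which the new chain leaves (Mrpl17, Mrpl22, Mrpl23, Mrpl24, Mrpl45 and Mrpl47), had a median of 1.94, or 1.82 when Mrpl4, which also lines the tunnel, was added after the values were seen. Mrpl45, which faces the inner membrane and helps anchor the ribosome there, gave 28.6 FPKM in DP, where nasal neutrophils had 6.08 and blood 0.92. The central protuberance (Mrpl18, Mrpl38, Mrpl40, Mrpl46 and Mrpl48) had a median of 2.00, and Mrps12 at the decoding centre gave 78.2, 13.3 and 14.6 FPKM, a ratio of 2.47. These classes hold 1 to 6 genes each and were not tested against each other.

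The S18 family holds 3 paralogues that occupy different places. Mrps18c, the counterpart of bacterial S18, was given above. Mrps18b, also in the small subunit, gave 25.5, 6.27 and 1.34 FPKM in the order DP, nasal, blood. Its ratio was 1.87 for DP over nasal neutrophils, and 30.5% of its exon bases are shared with another annotated gene. Mrps18a, in the large subunit, stood at 80.7, 17 and 11.8 FPKM, a ratio of 2.19. All 3 paralogues were highest in DP, and only for Mrps18c was blood above nasal neutrophils.

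Ratios varied with transcript length. The 76 transcripts are short, from 405 to 6073 nt with a median of 1038, against 1851 for all measured genes, and ratios of DP over nasal neutrophils ran higher for short genes. Across the 76 genes the ratio had a Pearson correlation of -0.41 with log2 length (Spearman -0.40), and across measured genes -0.21; genes share their libraries and are not independent replicates. Corrected for the median of measured genes of like length, the median of the 76 was 0.98, with 37 genes 2-fold higher (background 15.6%) and 8 genes 4-fold higher (2.83%). Of the 76, 0 were then 2-fold (19.6%) or 4-fold lower (6.87%). Above 0 after the correction were 69 of the 76. Within each length range the median of the genes lay above that of measured genes, with 5 of 5, 28 of 31, 23 of 24 and 13 of 16 genes above it from the shortest range to the longest. Up to 600 nt the median was 1.94 for 5 genes against 0.93, from 600 to 1000 nt 1.92 for 31 against 0.90, from 1000 to 2000 nt 1.63 for 24 against 0.69, and above 2000 nt 1.15 for 16 against 0.38. After the length correction the median of nasal over blood neutrophils was 0.08, with 16 genes 2-fold higher (background 23.5%) and 16 lower (21.1%), 3 of them 4-fold higher (8.93%) and 2 lower (5.63%). That of DP over blood was 1.21, with 43 genes 2-fold higher (24.9%) and 3 lower (24.0%), of which 13 were 4-fold higher (9.75%) and 0 lower (9.02%).

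**Figure D3:**
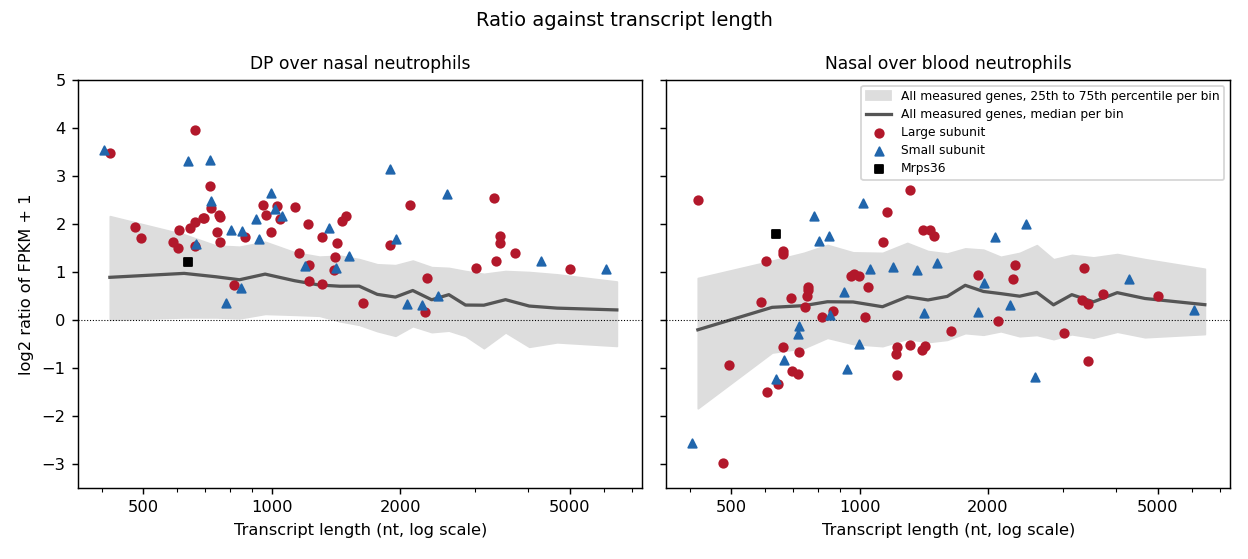
Log2 ratio of FPKM + 1 (vertical axis) against transcript length (nt, log scale) for the large-subunit genes (red circles), small-subunit genes (blue triangles) and Mrps36 (black square), with the median (line) and the 25th to 75th percentiles (band) of all measured genes in 20 bins of length. In DP over nasal neutrophils most points lie above the line at every length (median 1.94 against 0.93 up to 600 nt, 1.15 against 0.38 above 2000 nt), and in nasal over blood neutrophils they lie on both sides of it.

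Proteins of the mitochondrial ribosome whose symbols do not begin with Mrpl or Mrps had a like pattern. All 7 were above 0 in DP over nasal neutrophils before centring, 6 of them 2-fold (background 33.6%), with a median of 2.51. Chchd1, a small-subunit protein, gave 159, 17.6 and 12.4 FPKM (DP, nasal, blood). Ptcd3, an RNA-binding protein of the small subunit, stood at 19.4, 2.44 and 2.80 FPKM. Ict1, a large-subunit protein able to release stalled chains, stood at 87.0, 16.2 and 3.82 FPKM. DP was the highest library for each. Dap3, a GTP-binding protein of the small subunit and the gene of the 7 that did not reach 2-fold, stood at 6.05, 3.73 and 3.43 FPKM (ratio 0.58). Factors that assemble the ribosome or act in translation had lower medians than the ribosomal proteins. Assembly factors had a median of 0.88 (9 of 23 measured were 2-fold higher in DP) and translation factors 0.92 (6 of 13). Over all measured genes the median was 0.57, and 33.6% were 2-fold higher. Both lists also stood at lower levels, with medians of 1.39 and 1.83 FPKM in nasal neutrophils against 9.36, where adding 1 FPKM shrinks ratios more. With 0.1 FPKM added instead, the medians were 1.20 and 1.24, against 1.88 for the 76 genes. At a mean of 5 FPKM or more, 7 assembly factors had 1.31 and 2 translation factors 2.42, against 1.84 for 68 of the 76. Among assembly factors, the GTPase Gtpbp5 gave 23.6, 4.94 and 5.20 FPKM and Ngrn, which takes part in large-subunit rRNA assembly, gave 36.4, 9.03 and 14.3. The translation factor list was led by 1810035L17Rik, also known as Slirp, a partner of Lrpprc in stabilising mitochondrial mRNA, at 221, 15.7 and 19.2 FPKM. The release factor Mtrf1 gave 4.77, 0.30 and 0.062 FPKM. Mitochondrial aminoacyl-tRNA synthetases, which charge the organelle's tRNAs, had a median of 1.03 (7 of 14, background 33.6%). Lars2 ran the other way, with 53.4, 754 and 76.7 FPKM, the nasal library being highest, while Rars2 gave 27.8, 3.67 and 3.62.

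Genes of mitochondrial DNA upkeep and transcription had a median of 0.80 (4 of 8 were 2-fold higher, background 33.6% here and for the lists that follow), among them Ssbp1, the single-strand binding protein, at 24.6, 6.59 and 4.69 FPKM. Import, which brings the ribosomal proteins into the organelle, had a median of 1.71 (19 of 27). Timm17a, a subunit of the inner membrane translocase, gave 285, 30.3 and 5.42 FPKM. Respiratory chain and ATP synthase subunits encoded in the nucleus had a median of 2.31 (67 of 76), with 2.35 for complex I, 0.82 for complex II, 2.14 for complex III, 2.70 for complex IV and 1.51 for ATP synthase. In nasal against blood neutrophils that list had a median of -0.61, below the 0.43 of the mitochondrial ribosome. Cytosolic ribosomal proteins had medians of 0.99 (39 of 79) and -0.55 in those comparisons.

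**Figure D4:**
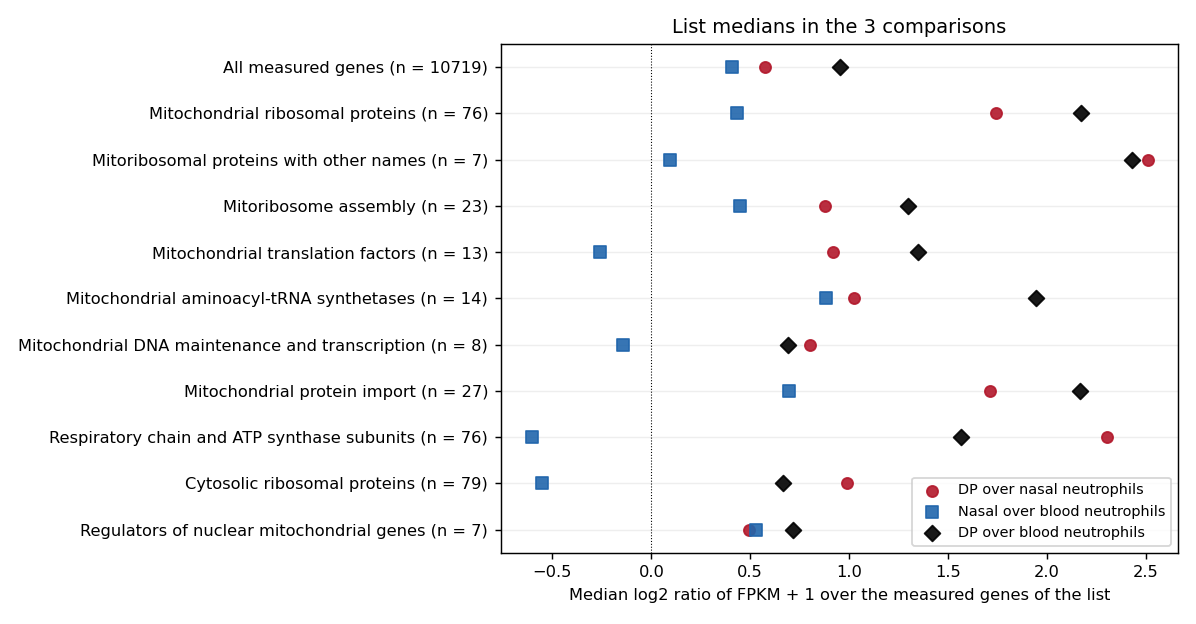
Median log2 ratio of FPKM + 1 for the mitochondrial ribosomal protein genes, 9 companion lists and all measured genes, with the number measured in each. Red circles are DP over nasal neutrophils, blue squares nasal over blood neutrophils and black diamonds DP over blood neutrophils; mitochondrial ribosomal proteins stand at 1.74, 0.43 and 2.17.

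Levels of the factors that the promoter motifs are named for were also measured. Of 7 measured regulators of nuclear genes for mitochondria, 0 had a log2 ratio of 1 or more in DP over nasal neutrophils (33.6% of measured genes did), with a median of 0.50 that becomes -0.08 when the median of all genes is subtracted. Nrf1 gave 20.4, 11.0 and 18.4 FPKM (DP, nasal, blood), Gabpa 11.3, 5.86 and 7.83, and Yy1 6.59, 2.98 and 2.62. All 3 were highest in DP, with log2 ratios of 0.83, 0.85 and 0.93 over nasal neutrophils. For Yy1 the FPKM values themselves differed by more than 2-fold, so the count of 0 rests on the 1 FPKM added. With 0.1 FPKM added instead, the median of the 7 was 0.51. Tfe3, a lysosome and energy regulator, was lower in DP, at 7.06 FPKM against 37.0 in the nasal and 13.7 in the blood library. Among the 67 genes with a promoter entry, those with an ETS match had a median ratio of 1.92 for DP over nasal neutrophils (24 genes) and those without 1.68 (43 genes). For the Nrf1 match the values were 1.59 (13) and 1.86 (54). Genes with an Nrf1 match ran from 0.17 for Mrpl39 to 3.54 for Mrps21.

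Shared or neighbouring promoters gave a further comparison. Of the 67 genes, 25 start within 1000 nt of another gene on the opposite strand, at distances of up to 935 nt. The share of all measured genes with such a neighbour was not counted. Mrpl46 and Mrps11 start 42 nt apart, and the 41 bases between their starts (chr7:78783090-78783130, plus strand) hold a GC box in capitals.
Mrps11: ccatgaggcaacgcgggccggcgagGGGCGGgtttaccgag

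Mrpl46 gave 51.6, 9.37 and 2.39 FPKM (DP, nasal, blood), and Mrps11 gave 26.0, 5.07 and 1.91. Both genes had the same order of libraries, which 40.2% of measured genes also had. They share exon bases with each other, 12.2% of those of Mrpl46 and 7.97% of those of Mrps11. For the 15 genes with a measured partner outside the mitochondrial ribosome, the partners' median ratio of DP over nasal neutrophils was 0.71. That of the ribosomal genes themselves was 1.82, and that of all measured genes 0.57. Of all measured genes, 88% had a ratio of up to 1.79, so most genes would rank below the median of these ribosomal genes. Some partners, such as Zfp189, Eme1 and Peo1, had low levels, where adding 1 FPKM shrinks ratios more, while others, such as Fau and Psma2, did not. The ribosomal gene had the higher ratio, though not always the higher level, in 14 of 15 pairs, and the share for unrelated genes was not counted. The exception was Mrpl47 (ratio 1.22), at 10.2, 3.82 and 1.27 FPKM. Its partner Ndufb5, a complex I subunit, had a ratio of 2.33 and stood at 122, 23.4 and 18.3. Tmem63b, 131 nt from Mrpl14, gave 3.47 FPKM in DP against 7.89 in the nasal library, while Mrpl14 itself gave 105 against 27.0.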

How the data were processed

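RNA-seq of 3 libraries, 1 per group by gate, tissue and day in the labels, was analysed from gene tables of FPKM that the authors deposited. The submitters' processing notes name Cufflinks 2.1.1, Bowtie2 2.1.0, TopHat2 2.0.8 and genome build mm9. Settings and the use of strand are not given in the sources used. The tables give a gene symbol and a value only, so the FPKM unit rests on Cufflinks being named. Per the labels' protocols, libraries came from sorted cells through a low-input kit.

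Values below 1e-06 FPKM (32 in DP, 20 in nasal and 43 in blood neutrophils) were set to 0. Ratios are differences of log2(FPKM + 1) over genes with a mean of 1 FPKM or more, and counts use 2-fold and 4-fold. FPKM are not counts and each group has 1 library, so no test was made. Transcript lengths came from GENCODE M21, of another build than mm9, used as lengths and as exon overlap only (98.7% of measured genes matched). Exon bases are shared with another annotated gene in 32 of the 76, and more than 20% of them in 10. Depth came from the most common step of low values, sought in 2226 genes with 1 annotated transcript of over 1500 nt. Values within 6% of that step came from 66 genes in DP, 77 in nasal and 50 in blood neutrophils. The depth so read was about 5.44e+07, 1.27e+07 and 5.38e+07 fragments in DP, nasal and blood neutrophils, and its error was not estimated.

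Genes named were the 8 highest and 8 lowest ratios in each comparison at a mean of 5 FPKM or more, the 5 highest and 5 lowest means, structural classes, and up to 4 genes of each companion list; Dap3, Ict1, Yy1, Mrps5, Epx, Scgb1a1, the genes below 1 FPKM in blood, the printed promoters and the shared-promoter partners were chosen after their values were seen. The genes and lists were chosen with earlier results of these data known. Alternatives were other pseudocounts, filters, scalings, centring and a length correction. Ly6g, Mgme1, Timm21, Obp1b and Trac were not analysed here. The steps were checked on simulated data and run in Python 3.11.15 with pandas 2.3.3 and numpy 2.4.6.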

Additional observations from a re-analysis of the deposited data

How the results depend on the processing

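No paired analysis was possible because each group has 1 library, and for the same reason no library could be left out. Pseudocounts of 0.1 and 5, no filter, a mean of 5 FPKM or more, a sum of 1000000, centring on the median of measured genes, upper-quartile scaling, leaving out genes at 0 and a length correction were tried, and 0 values reversed at a ratio of 2-fold or more. Of 280 summary values, 46 moved by more than 1.5 times, and the cause was not tested except where fewer genes were left. Of 474 ratios of single named genes 149 moved, 56 of them under length correction and 52 under upper-quartile scaling. For DP over nasal neutrophils, the genes 4-fold higher numbered 12 at a pseudocount of 5, 9 after centring, 7 after upper-quartile scaling and 8 after length correction, which also left 37 at 2-fold. The median was 1.12 after upper-quartile scaling (large subunit 1.12, small subunit 1.14) and 0.98 after length correction (0.97 and 1.02). Upper-quartile scaling gave 1.91 for ribosomal proteins with other names, -0.15 for regulators, 1.06 for import, 1.65 for the respiratory chain and 0.35 for cytosolic ribosomal proteins; length correction gave 0.23 for assembly factors, 0.94 for import, 1.4 for the respiratory chain and 0.092 for cytosolic ribosomal proteins. A pseudocount of 5 gave 1.81 for ribosomal proteins with other names, and a mean of 5 FPKM or more left 2 translation factors at 2.42 and 3 DNA genes at 1.48. For nasal over blood neutrophils, genes 4-fold higher numbered 15 at a pseudocount of 0.1, 1 at 5, 10 at a sum of 1000000, and 3 after centring and after length correction. Genes 2-fold higher numbered 8 at a pseudocount of 5 and 15 after centring, and genes 2-fold lower 6 at a pseudocount of 5 and 16 after centring and after length correction. For DP over blood neutrophils, the median was 1.48 at a pseudocount of 5, 1.22 after centring, 1.47 after upper-quartile scaling and 1.21 after length correction. Genes 4-fold higher then numbered 27, 18, 20 and 13; genes 2-fold lower numbered 2 after centring, 2 after upper-quartile scaling, 3 after length correction and 0 at a sum of 1000000, and 1 was 4-fold lower after centring. Added after seeing the data, and given as shares because fewer genes remain, genes 2-fold higher in DP than in nasal neutrophils were 80% of the 40 above 1000 nt (32 genes, median 1.39), 86.4% of the 44 sharing no exon base (1.77) and 83.6% of the 55 with 100 or more fragments in nasal neutrophils (1.82), against 85.5% of all 76. Depth per FPKM is lowest in nasal neutrophils (about 13 fragments at 1 kb), and the fewest fragments behind a single value are those of Mrps2 in blood, about 8.4 at 0.075 FPKM.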
